A study of Mus musculus with 15 samples.

Results

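Desmosome and simple keratin genes were followed through 5 groups of mouse embryonic fibroblasts that differed in the histone deacetylases Hdac1 and Hdac2. The 10 genes were Dsp, Jup, Pkp1, Pkp2, Pkp4, Dsg2, Dsc2, Krt8, Krt18 and Krt19, out of 18193 gene symbols on the array. They had 24 probe sets annotated to a single symbol. Each gene's probe set was chosen by its mean intensity over the 15 arrays, the brightest standing for the gene, so that this mean is only a description. For Dsp it was 141, with 118 for the next probe set, and for Krt8 20.8, with 19.8. For Dsp this choice was not independent of the differences tested, as described below.

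RNA came from primary fibroblasts of male embryos and was hybridised to Affymetrix mouse arrays, with n = 3 arrays in each group. In 4 groups Hdac1 was floxed, and the cells carried a retrovirus for Cre-ERT2, a recombinase that tamoxifen activates, and another for a micro-RNA. Cells with both perturbations had the micro-RNA against Hdac2 and 200 nM tamoxifen. Hdac1 knockout (KO) cells had the scrambled micro-RNA and 200 nM tamoxifen, and Hdac2 knockdown (Kd) cells the micro-RNA against Hdac2 and ethanol. Hdac1 +/+ cells had intact Hdac1 and 200 nM tamoxifen, and the sources used here do not say which viruses they carried. Control cells had floxed Hdac1, the scrambled micro-RNA and ethanol. KO and control cells differ in the deletion and in tamoxifen. The +/+ and control cells differ in tamoxifen, in the Hdac1 allele and possibly in the viruses, as the +/+ label names no micro-RNA. KO and +/+ cells share tamoxifen but differ in the allele, the deletion and possibly the viruses. Cells with both differ from +/+ cells in these and in the micro-RNA against Hdac2. The parts of each difference cannot be told apart. No label states that a group's arrays stem from different cultures, and p-values therefore measure only the spread between these arrays, which may be technical.

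Desmosomes are cell junctions that fasten the intermediate filaments of neighbouring cells to each other. Desmogleins and desmocollins are the cadherins that span the gap, plakoglobin and the plakophilins bind their tails, and desmoplakin links this plaque to the filaments. Simple keratins, the filaments of single-layered epithelia, pair a type II chain such as keratin 8 with a type I chain such as keratin 18 or 19. Fibroblasts adhere mostly through adherens junctions and build their filaments from vimentin.

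Dsp, which encodes desmoplakin, had a high signal in cells with both perturbations and a dim one in the other 4 groups. Jup and Pkp2, which encode plaque proteins, were also higher in cells with both than in every other group, and Krt19 was lower there than in every other group. The desmosomal cadherins Dsg2 and Dsc2 and the keratin Krt8 passed in no comparison, and Krt18 was too dim to be tested.

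**Figure D1:**
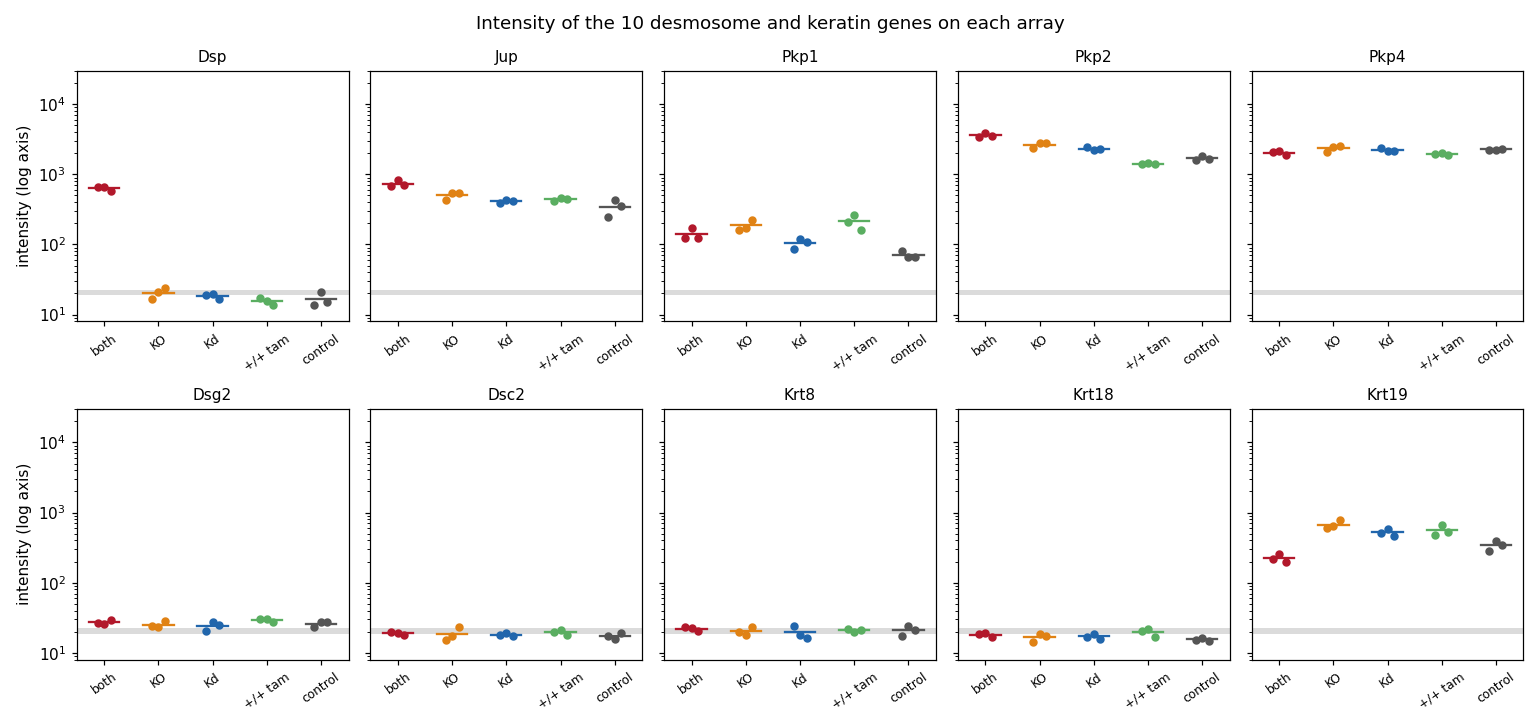
Intensity of each of the 10 genes on every array (log axis; each point is 1 array, each line the mean of 3 arrays), in cells with both perturbations, KO, Kd, +/+ with tamoxifen and control cells. The grey band spans the arrays' 40th percentiles, 18.8 to 22.5. Dsp lies at 582 to 658 in cells with both and at 13.8 to 20.9 in control cells.

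The arrays' median intensities ran from 24.1 to 30.7. Hdac1 averaged 156 ± 48.6 in cells with both, 161 ± 19.8 in KO, 3855 ± 106 in Kd, 4472 ± 311 in +/+ and 3557 ± 101 in control cells (intensity, SD, n = 3). Hdac2 averaged 1025 ± 9.88 in cells with both, 7167 ± 617 in KO, 958 ± 62.1 in Kd, 7556 ± 120 in +/+ and 7051 ± 449 in control cells. A gene was tested if its probe set exceeded the array's 40th percentile, 18.8 to 22.5, on at least 3 arrays, which left 13375 genes. Tests were limma's moderated tests on log2(intensity + 16), a scale that understates changes of dim genes, with Benjamini-Hochberg adjustment over all 13375 genes and a threshold of 0.05. All adjusted p-values are limma's, errors of fold changes are SEs, and errors of intensities are SDs of 3 arrays.

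Desmoplakin is the plakin that ties the desmosome to keratin filaments. The chosen Dsp probe set had 657, 658 and 582 in cells with both, 16.6, 21.0 and 23.6 in KO, 19.0, 19.9 and 16.6 in Kd, 17.4, 15.6 and 13.7 in +/+ and 13.8, 20.9 and 15.3 in control cells. The 3 arrays with both did not overlap any of the 12 others, and 4 of those 12 exceeded their array's 40th percentile. This probe set was the brightest only through the cells with both, at a mean of 632 against 501 for the next one. In each of the other 4 groups the next probe set was brighter. The choice thus drew on the difference tested and favoured a large one, so the p-values are not free of the selection. The log2 fold change of the chosen probe set in cells with both was 4.31 ± 0.09 against control (adjusted p = 2.32e-15), 4.16 against KO (adjusted p = 4.63e-15) and 4.23 against Kd (adjusted p = 3.53e-15). Against +/+ cells, which also had tamoxifen, it was 4.36 (adjusted p = 2.02e-15), in a comparison chosen after seeing the data. All 3 +/+ arrays were under their 40th percentile. With that percentile as their level, the chosen probe set was at least 31.1-fold higher in cells with both.

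With a single perturbation the same probe set gave no call. The log2 fold change against control was 0.16 ± 0.09 in KO (adjusted p = 0.248) and 0.08 ± 0.09 in Kd cells (adjusted p = 0.676). The difference of tamoxifen-treated, Hdac1-deleted cells from ethanol-treated cells was larger with the micro-RNA against Hdac2 than with the scrambled one, by 4.08 ± 0.13 (interaction, adjusted p = 1.58e-12). A further Dsp probe set averaged 501 ± 102 in cells with both, 29.7 ± 3.84 in KO, 21.2 ± 3.32 in Kd, 19.7 ± 1.45 in +/+ and 17.2 ± 3.70 in control cells. Its KO arrays, at 25.9 to 33.6, all lay above its control arrays, at 13.1 to 20.2. With that probe set in place of the chosen one, KO cells passed the threshold against control (0.46, adjusted p = 0.0108) and against +/+ cells (0.35, adjusted p = 0.043), so the probe sets disagreed on KO. The missing KO call of the chosen probe set thus depended on how it was chosen. The call with both against control stood in every alternative, that probe set among them (2.94 to 5.18, adjusted p at most 5.79e-08). The chosen probe set passed for KO against +/+ cells without KO replicate 1, the lowest KO array (0.28, adjusted p = 0.0462). The dimmest probe set averaged 30.6 ± 2.31 in cells with both, 16.3 ± 1.34 in KO, 15.3 ± 1.34 in Kd, 16.8 ± 0.790 in +/+ and 15.8 ± 0.354 in control cells.

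The genes whose 5 group means were most like those of Dsp, by the root mean square difference of centred log2 means, were Apoe (0.06), Ccn3 (0.09) and Aass (0.11). Apoe encodes the lipid carrier apolipoprotein E and averaged 495 ± 85.5 in cells with both and between 11.1 and 13.7 in the other groups. Ccn3 encodes a secreted matricellular protein and averaged 15445 ± 2090 in cells with both and between 675 and 832 in the other groups. Aass encodes an enzyme of lysine breakdown and averaged 646 ± 11.8 in cells with both and between 18.1 and 20.9 in the other groups.

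**Figure D2:**
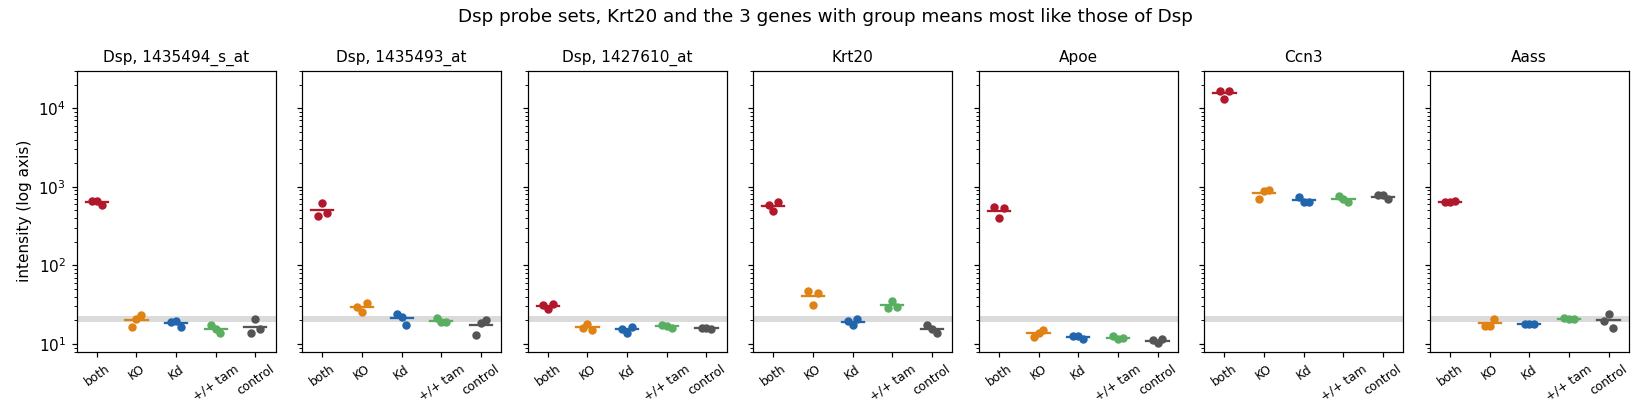
Intensity on every array (log axis; points are arrays, lines are means of 3) of Dsp probe sets, of Krt20 and of Apoe, Ccn3 and Aass, the genes with group means most like those of Dsp. The grey band spans the arrays' 40th percentiles, 18.8 to 22.5. Cells with both lie above the other 4 groups in each panel.

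RefSeq promoter windows (GRCm38.p6), from 250 bases before to 50 after a start site, were found for 5 of the 10 genes: Dsp, Jup, Pkp4, Krt8 and Krt18. Shown 5′ to 3′ on the gene's own strand are those of Dsp, of Krt20, a keratin outside the 10 genes that was bright in the same cells, and of Krt18, which was dim in every group. Capitals mark matches, on either strand, to the GC box GGGCGG, which Sp1 binds, and to CACCTG, an E-box that Snail and Zeb repressors bind; no match in these windows overlaps another.
Dsp, chr13:38151044-38151343, plus strand: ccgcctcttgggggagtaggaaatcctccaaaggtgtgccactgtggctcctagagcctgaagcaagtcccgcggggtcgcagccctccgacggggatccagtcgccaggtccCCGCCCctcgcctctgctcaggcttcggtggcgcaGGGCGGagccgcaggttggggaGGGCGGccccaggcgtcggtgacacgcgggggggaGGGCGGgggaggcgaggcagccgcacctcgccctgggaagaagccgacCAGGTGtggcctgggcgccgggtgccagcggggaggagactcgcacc
Krt20, chr11:99438104-99438403, minus strand: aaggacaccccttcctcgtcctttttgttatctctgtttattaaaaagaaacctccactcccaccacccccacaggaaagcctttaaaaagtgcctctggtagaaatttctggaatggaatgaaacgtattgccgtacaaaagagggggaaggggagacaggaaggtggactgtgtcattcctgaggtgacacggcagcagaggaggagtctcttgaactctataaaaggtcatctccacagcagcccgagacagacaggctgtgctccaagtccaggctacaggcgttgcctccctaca
Krt18, chr15:102027966-102028265, plus strand: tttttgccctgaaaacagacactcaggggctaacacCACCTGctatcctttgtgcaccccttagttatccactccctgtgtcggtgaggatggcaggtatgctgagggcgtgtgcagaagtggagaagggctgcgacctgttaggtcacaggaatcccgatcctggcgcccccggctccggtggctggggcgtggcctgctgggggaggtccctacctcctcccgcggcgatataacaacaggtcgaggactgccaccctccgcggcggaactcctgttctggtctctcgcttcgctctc

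The Dsp window held 4 matches to the GC box and 1 to the E-box, and 73.0% of its bases were G or C. The Krt20 window held 0 of either and was 50% G or C. The Krt18 and Krt8 windows each held 1 E-box and 0 GC boxes, and that of Jup 2 GC boxes and 0 E-boxes. Of the 2 Pkp4 windows, 1 held 6 GC boxes, overlapping matches counted, and 0 E-boxes, and the other 0 and 1. The AP-1 motif TGANTCA had 0 matches in the windows of Dsp, Krt20, Krt18, Krt8, Jup and Pkp4. Of 32851 windows in the table, 35.7% held the GC box, 20.2% the E-box and 7.81% the AP-1 motif. A match describes letters and is not a binding site.

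Jup encodes plakoglobin, the armadillo protein shared by desmosomes and adherens junctions. It had 675, 818 and 712 in cells with both, 428, 541 and 541 in KO, 389, 435 and 416 in Kd, 415, 454 and 446 in +/+ and 246, 425 and 349 in control cells. Cells with both lay above all other arrays, and the lowest KO array lay just above the highest control array. The log2 fold change against control was 1.11 ± 0.14 with both (adjusted p = 3.94e-06), 0.57 ± 0.14 in KO (adjusted p = 0.00864) and 0.30 ± 0.14 in Kd cells (adjusted p = 0.223). Without control replicate 2, the highest control array, Kd cells passed as well (0.47, adjusted p = 0.0405). With arrays weighted by quality the KO call ended (0.44, adjusted p = 0.252).

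Jup in cells with both exceeded Kd by 0.80 (adjusted p = 0.000125), KO by 0.54 (adjusted p = 0.00431) and +/+ cells by 0.72 (adjusted p = 0.000347). The call against KO ended with arrays weighted by quality (adjusted p = 0.0603). KO and +/+ cells differed by 0.19 ± 0.14 (adjusted p = 0.406), and +/+ cells and control by 0.38 ± 0.14 (adjusted p = 0.0565; 0.00707 without control replicate 2, 0.0486 without KO replicate 1 and 0.0478 without replicate 2 of the cells with both). The interaction was 0.23 ± 0.20 (adjusted p = 0.388), and 0.44 without control replicate 1, the lowest control array (adjusted p = 0.0335).

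Pkp2 encodes plakophilin 2, the plakophilin of simple epithelia and heart muscle. Its chosen probe set had 3403, 3882 and 3537 in cells with both, 2373, 2769 and 2765 in KO, 2430, 2249 and 2277 in Kd, 1400, 1461 and 1398 in +/+ and 1625, 1801 and 1663 in control cells. No array with both overlapped another group, and neither KO nor Kd arrays overlapped those of +/+ or control cells. Against control its log2 fold change was 1.08 ± 0.08 with both (adjusted p = 2.6e-09), 0.63 ± 0.08 in KO (adjusted p = 2.7e-05) and 0.45 ± 0.08 in Kd cells (adjusted p = 0.00089). A further probe set had the same order of groups, with 1395 ± 42.2 in cells with both, 994 ± 102 in KO, 937 ± 5.72 in Kd, 578 ± 51.3 in +/+ and 660 ± 36.1 in control cells.

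Pkp2 was the 1 member of the 10 that passed as higher in KO cells against both control and +/+ cells (0.88 ± 0.08, adjusted p = 3.08e-07, against +/+). Its interaction was 0.00 ± 0.11 (adjusted p = 0.981), so that no departure from the sum of both log2 changes was found at this error. Cells with both exceeded Kd by 0.63 (adjusted p = 1.85e-06) and KO by 0.45 (adjusted p = 8.23e-05). In +/+ cells Pkp2 was at -0.25 ± 0.08 against control (adjusted p = 0.0201), a call that ended in 5 of 26 alternatives, among them the mean of its 4 probe sets (adjusted p = 0.403) and leaving out control replicate 2 (adjusted p = 0.0895), +/+ replicate 1 (adjusted p = 0.0644) or +/+ replicate 3 (adjusted p = 0.0564).

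Pkp1 encodes plakophilin 1, known chiefly from the desmosomes of skin. It had 124, 174 and 122 in cells with both, 160, 173 and 226 in KO, 86.9, 121 and 110 in Kd, 210, 266 and 161 in +/+ and 80.3, 65.9 and 65.1 in control cells. The 12 arrays of the other groups all lay above the 3 control arrays. The log2 fold change against control was 0.84 ± 0.17 with both (adjusted p = 0.000358), 1.22 ± 0.17 in KO (adjusted p = 9.13e-05), 0.49 ± 0.17 in Kd (adjusted p = 0.081) and 1.38 ± 0.17 in +/+ cells (adjusted p = 1.67e-05). Kd cells passed without replicate 2 of the cells with both (adjusted p = 0.0479) and in 2 other alternatives.

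Against +/+ cells Pkp1 was at -0.54 with both (adjusted p = 0.0107), which turns the direction found against control, and at -0.16 ± 0.17 in KO cells (adjusted p = 0.555). The interaction was -0.87 ± 0.24 (adjusted p = 0.00769). The difference of tamoxifen-treated, Hdac1-deleted cells from ethanol-treated cells was 1.22 with the scrambled micro-RNA and 0.35 ± 0.17 with the micro-RNA against Hdac2 (adjusted p = 0.0811). Between cells with both and KO cells it was -0.38 ± 0.17 (adjusted p = 0.0679), which passed without KO replicate 1 (0.0498), +/+ replicate 2 (0.0446) or 3 (0.0437) or replicate 2 of the cells with both (0.0148). That difference also passed after quantile normalization (-0.60, adjusted p = 0.00431) and after median centring (-0.47, adjusted p = 0.0215).

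Pkp4 encodes an armadillo protein related to the plakophilins and found at adherens junctions and desmosomes. It had 2071, 2147 and 1897 in cells with both, 2078, 2436 and 2513 in KO, 2374, 2146 and 2124 in Kd, 1925, 2014 and 1870 in +/+ and 2205, 2255 and 2325 in control cells. Both the cells with both and the +/+ cells lay below control without overlap, and the other groups overlapped control. Against control the log2 fold change was -0.15 ± 0.08 with both (adjusted p = 0.106), 0.05 in KO (adjusted p = 0.731) and -0.03 in Kd cells (adjusted p = 0.876). After quantile normalization Pkp4 passed as lower with both (-0.36, adjusted p = 4.37e-05), as it did with the mean of its probe sets (-0.28, adjusted p = 0.000712).

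The other Pkp4 probe set averaged 296 ± 30.7 in cells with both, 414 ± 27.0 in KO, 520 ± 8.09 in Kd, 407 ± 13.8 in +/+ and 399 ± 32.2 in control cells, with Kd arrays above and those with both below control. Each probe set thus placed cells with both below control, and the probe sets disagreed on Kd and +/+ cells. With their mean Pkp4 also passed for both against Kd (-0.45, adjusted p = 7.8e-06) and for the interaction (-0.50, adjusted p = 0.000203). The chosen probe set passed for both against KO (-0.20, adjusted p = 0.0442), +/+ against control (-0.22, adjusted p = 0.0455) and KO against +/+ (0.27, adjusted p = 0.0203), calls that ended in 16, 13 and 7 of 26 alternatives in that order. The alternatives that ended them included leaving out, for both against KO, any +/+ or control array, KO replicate 2 or 3, Kd replicate 2 or 3 or replicate 1 or 3 of the cells with both, with adjusted p from 0.0506 to 0.181. For +/+ against control they included leaving out any +/+ or control array, KO replicate 2, Kd replicate 2 or 3 or replicate 1 of the cells with both (0.053 to 0.134), and for KO against +/+ KO replicate 2 or 3 or +/+ replicate 1 or 3 (0.0583 to 0.0827).

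Dsg2 and Dsc2 encode desmoglein 2 and desmocollin 2, the desmosomal cadherins of simple epithelia. The brightest of the 6 Dsg2 probe sets averaged 27.4 ± 2.06 in cells with both, 25.1 ± 2.58 in KO, 24.1 ± 3.34 in Kd, 29.1 ± 1.74 in +/+ and 25.99 ± 2.01 in control cells. The brighter of 2 Dsc2 probe sets averaged 18.9 ± 1.12 in cells with both, 18.6 ± 4.02 in KO, 18.2 ± 0.748 in Kd, 19.7 ± 1.54 in +/+ and 17.3 ± 1.70 in control cells. Beside the arrays' 40th percentiles of 18.8 to 22.5, Dsg2 was above its array's on 15 of 15 arrays and Dsc2 on 3. Each of the other Dsg2 probe sets was above it on at most 2 arrays, with means of 12.4 to 18.1 over all arrays. With both against control the log2 fold change was 0.05 ± 0.08 for Dsg2 (adjusted p = 0.601) and 0.07 ± 0.08 for Dsc2 (adjusted p = 0.45), and neither gene passed in any of the 8 comparisons. A p that misses the threshold does not show that the cadherins were unchanged.

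Krt8 and Krt18 encode the first pair of simple keratins to appear in the embryo. Krt8 lay at 20.6 to 23.0 in cells with both, 18.01 to 23.0 in KO, 16.4 to 23.9 in Kd, 19.9 to 21.6 in +/+ and 17.6 to 23.7 in control cells. Krt18 lay at 16.9 to 19.2 in cells with both, 14.1 to 18.5 in KO, 15.8 to 18.6 in Kd, 16.6 to 22.2 in +/+ and 14.7 to 16.5 in control cells, exceeded its array's 40th percentile on 1 of 15 arrays and was not tested. The groups overlapped for Krt8, which passed no test (0.05 ± 0.09, adjusted p = 0.614, for both against control). The genes with group means most like those of Krt8 were Disp3, Tex46 and Dok3, whose means lay between 19.1 and 27.4 in every group.

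Krt19 encodes keratin 19, a type I keratin with hardly any tail domain. It had 217, 254 and 196 in cells with both, 599, 653 and 773 in KO, 513, 590 and 464 in Kd, 483, 658 and 530 in +/+ and 288, 388 and 346 in control cells. Cells with both lay below the control arrays, and KO, Kd and +/+ cells lay above them, without overlap. Relative to control, Krt19 had a log2 fold change of -0.58 ± 0.14 with both (adjusted p = 0.00139), 0.96 ± 0.14 in KO (adjusted p = 0.000115), 0.60 ± 0.14 in Kd (adjusted p = 0.00864) and 0.68 ± 0.14 in +/+ cells (adjusted p = 0.00136). The Kd call ended without control replicate 1 (adjusted p = 0.0502) and without Kd replicate 2 (adjusted p = 0.0512).

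Krt19 was thus higher than control with each single perturbation and lower with the combination. In cells with both it was at -1.53 against KO (adjusted p = 6.61e-08) and -1.18 against Kd cells (adjusted p = 1.2e-06), and the interaction was -2.13 ± 0.19 (adjusted p = 2.59e-07). Against +/+ cells it was at -1.26 with both (adjusted p = 5.38e-07) and 0.27 ± 0.14 in KO cells (adjusted p = 0.167), so the KO call was found against ethanol-treated control cells and not against tamoxifen-treated +/+ cells.

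**Figure D3:**
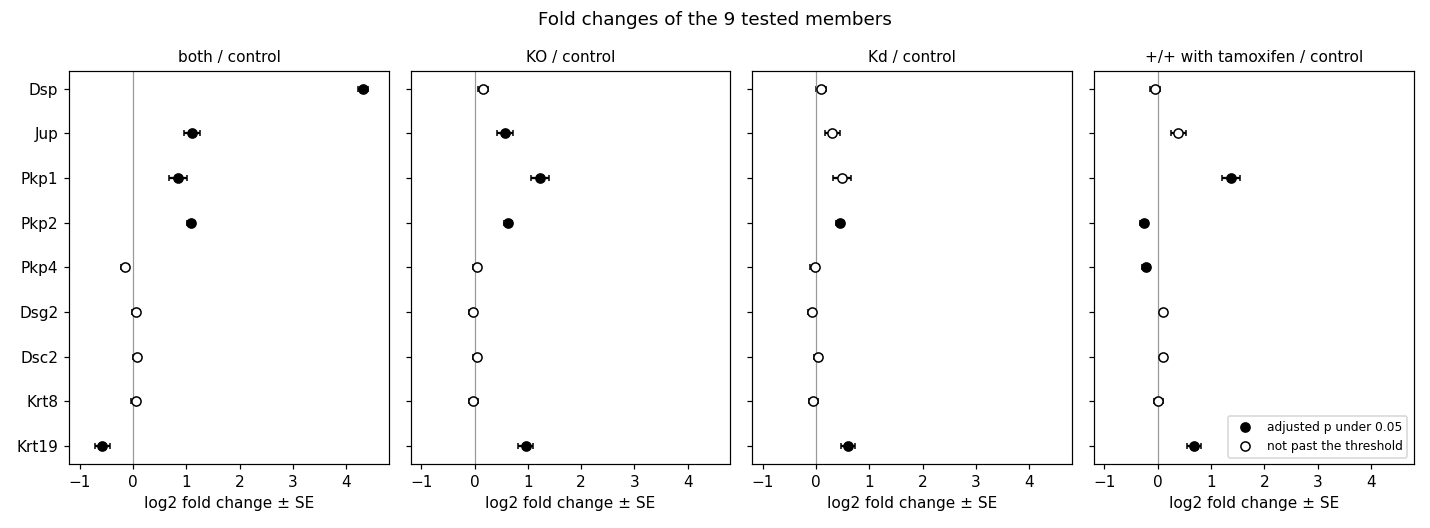
Log2 fold change ± SE of the 9 tested genes against control in cells with both, KO, Kd and +/+ cells with tamoxifen (filled points passed an adjusted p of 0.05). Krt19 lies at -0.58 with both and at 0.96 and 0.60 in KO and Kd cells, and Pkp2 lies above 0 in all 3.

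Of the 9 tested genes 4 were higher and 1 lower with both against control, beside 65.5% of all genes (46.2% higher, 19.3% lower). In KO cells 4 were higher and 0 lower, beside 24.2% of all genes (19.6% higher, 4.66% lower), and in Kd cells 2 and 0, beside 10.6% of all genes (7.55% higher, 3.04% lower). In +/+ cells 2 were higher and 2 lower than control, beside 28.5% of all genes (21.5% higher, 6.94% lower). For both against KO the counts were 3 and 2, beside 56.8% of all genes (36.2% higher, 20.6% lower), and for both against Kd 3 and 1, beside 63.4% of all genes (42.9% higher, 20.5% lower). For KO against +/+ they were 2 and 0, beside 24.1% of all genes (12.8% higher, 11.3% lower), and for the interaction 1 and 2, beside 42.9% of all genes (25.8% higher, 17.2% lower). Beside such backgrounds the counts of 9 genes are no result about the group, and the comparisons with control share its 3 arrays.

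The median log2 fold change of all genes with both against control was 0.16, and -0.02 after quantile normalization. Before and after it, the share of calls that were higher was 70.5% and 49.2% with both, 80.8% and 49.2% in KO, 71.3% and 53.3% in Kd and 75.6% and 49.1% in +/+ cells against control. It was 67.7% and 49% for both against Kd, 63.7% and 49.1% for both against KO and 60% and 48.3% for the interaction. Dsp (4.15), Jup (0.88), Pkp1 (0.47), Pkp2 (0.85) and Krt19 (-0.87) kept their calls with both against control after quantile normalization.

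Other desmosome genes were mostly dim. Of 11 listed genes 8 had a probe set and 5 were tested. With both 2 were higher, beside 46.2% of all genes (median log2 fold change 0.15, beside 0.16 over all genes). In KO cells 1 was higher (beside 19.6%) and in Kd cells 1 was lower (beside 3.04%). Perp, which encodes a membrane protein of desmosomes and a target of p53, had 5611, 5378 and 6146 in cells with both, 2837, 3290 and 3464 in KO, 783, 792 and 783 in Kd, 408, 458 and 413 in +/+ and 1657, 1666 and 1590 in control cells. No groups overlapped. The log2 fold change against control was 1.79 ± 0.08 with both (adjusted p = 9.03e-12), 0.95 ± 0.08 in KO (adjusted p = 6.64e-07), -1.04 ± 0.08 in Kd cells (adjusted p = 2.17e-07), and -1.90 ± 0.08 in +/+ cells (adjusted p = 6.39e-11). The interaction was 1.88 ± 0.11 (adjusted p = 2.2e-09). Pkp3, which encodes plakophilin 3, was at 0.19 with both (adjusted p = 0.0217), a call that ended after quantile normalization.

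Of 15 other keratins 9 were tested, and with both 4 were higher and 1 lower, beside 46.2% and 19.3% of all genes. Their median was 0.07, and 3 were higher and 2 lower after quantile normalization. Krt20, which encodes a keratin of intestinal epithelium, had 590, 494 and 634 in cells with both, 47.7, 31.1 and 44.5 in KO, 19.8, 17.2 and 20.9 in Kd, 28.6, 35.3 and 29.8 in +/+ and 17.2, 15.5 and 13.7 in control cells. Cells with both lay far above every other array, and KO and +/+ cells above control. Against control Krt20 had a log2 fold change of 4.22 ± 0.11 with both (adjusted p = 1.91e-14) and 0.85 ± 0.11 in KO (adjusted p = 4.72e-05), and the interaction was 3.21 ± 0.15 (adjusted p = 2.09e-10). It was also higher in +/+ cells than in control (0.58, adjusted p = 0.000865), and KO cells did not pass against +/+ cells (0.26, adjusted p = 0.0973). All control arrays were under their 40th percentile, and with that percentile as their level Krt20 was at least 29.8-fold higher in cells with both. Krt10, which encodes a type I keratin of upper skin layers, averaged 179 ± 36.0 in cells with both and 481 ± 13.2 in control cells (-1.37, adjusted p = 4.41e-09). It was also lower in +/+ cells than in control (-0.53, adjusted p = 0.00092). Krt7 (0.91) and Krt80 (0.77) were higher with both, Krt80 also in Kd cells (0.31), and Krt23 was at 0.19 with both, a call that ended after quantile normalization.

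Among 11 other filament and linker genes 6 were higher and 4 lower with both, beside 46.2% and 19.3% of all genes. Their median was 0.30, and 3 were higher and 4 lower after quantile normalization. Eppk1, counted as higher before and after it, exceeded its array's 40th percentile only on the 3 arrays with both. It entered the test through those, so its call is not given as support. Vim, which encodes vimentin, averaged 51802 ± 1678 in cells with both and 48238 ± 1677 in control cells (0.10, adjusted p = 0.223). Lmnb1, which encodes the nuclear lamin B1, averaged 250 ± 48.5 in cells with both, 729 ± 148 in KO, 1429 ± 98.8 in Kd, 1184 ± 33.0 in +/+ and 1139 ± 107 in control cells, a log2 fold change of -2.13 with both (adjusted p = 6.03e-10) and -0.65 in KO cells (adjusted p = 0.00215). Lmnb2 was at -1.07 with both and -0.53 in KO cells, and Lmna (-0.60) and Plec (-0.49) were lower with both, Plec also in +/+ cells (-0.37). The plakin Macf1 (0.68) and the filament protein Synm (0.90) were higher with both, Synm also in Kd (0.45) and +/+ cells (0.26).

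All 11 adherens junction genes were tested, and 6 were higher and 0 lower with both (median 0.36; 6 and 3 after quantile normalization), beside 46.2% and 19.3% of all genes. In KO cells 4 were higher and 0 lower than control (beside 19.6% and 4.66%), in Kd cells 2 and 0 (beside 7.55% and 3.04%) and in +/+ cells 5 and 1 (beside 21.5% and 6.94%). In KO against +/+ cells 1 was higher and 2 were lower (beside 12.8% and 11.3%). Nectin2, which encodes an immunoglobulin-like adhesion molecule, had 1086, 1106 and 1114 in cells with both, 343, 374 and 410 in KO, 390, 404 and 354 in Kd, 325, 367 and 305 in +/+ and 246, 245 and 224 in control cells. Its log2 fold change against control was 2.14 ± 0.08 with both (adjusted p = 1.74e-12), 0.62 in KO, 0.65 in Kd and 0.45 in +/+ cells, and KO cells were at 0.17 against +/+ cells (adjusted p = 0.154). The armadillo genes Arvcf (1.51) and Ctnnd1 (0.67) and the cadherin gene Cdh11 (0.69) were higher with both. Ctnnd1 was also higher in Kd (0.30, adjusted p = 0.0454) and +/+ cells (0.51, adjusted p = 0.000609). Cdh11 was lower in +/+ cells than in control (-0.41, adjusted p = 0.000374).

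Of 6 repressors of epithelial genes 2 were higher and 2 lower with both, beside 46.2% and 19.3% of all genes. Their median was -0.12, and 1 was higher and 4 were lower after quantile normalization. Snai1 averaged 886 ± 28.7 in cells with both, 1973 ± 182 in KO, 1810 ± 132 in Kd, 2566 ± 213 in +/+ and 2261 ± 63.1 in control cells (-1.34, adjusted p = 5.13e-10, for both against control). Snai2 was at -0.51, Zeb1 at 0.89 and Twist1 at 0.37 with both, and the Twist1 call ended after quantile normalization. Zeb1 was also higher than control in +/+ cells (0.36, adjusted p = 0.0012) and in KO cells (0.26, adjusted p = 0.0131), and the KO call ended after quantile normalization. Twist1 was lower in KO cells (-0.34, adjusted p = 0.0279), and Twist2 was higher in +/+ cells (0.32, adjusted p = 0.00444). Relative to control, Kd cells had lower Snai1 (-0.32, adjusted p = 0.0182) and higher Zeb2 (0.62, adjusted p = 0.00911).

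**Figure D4:**
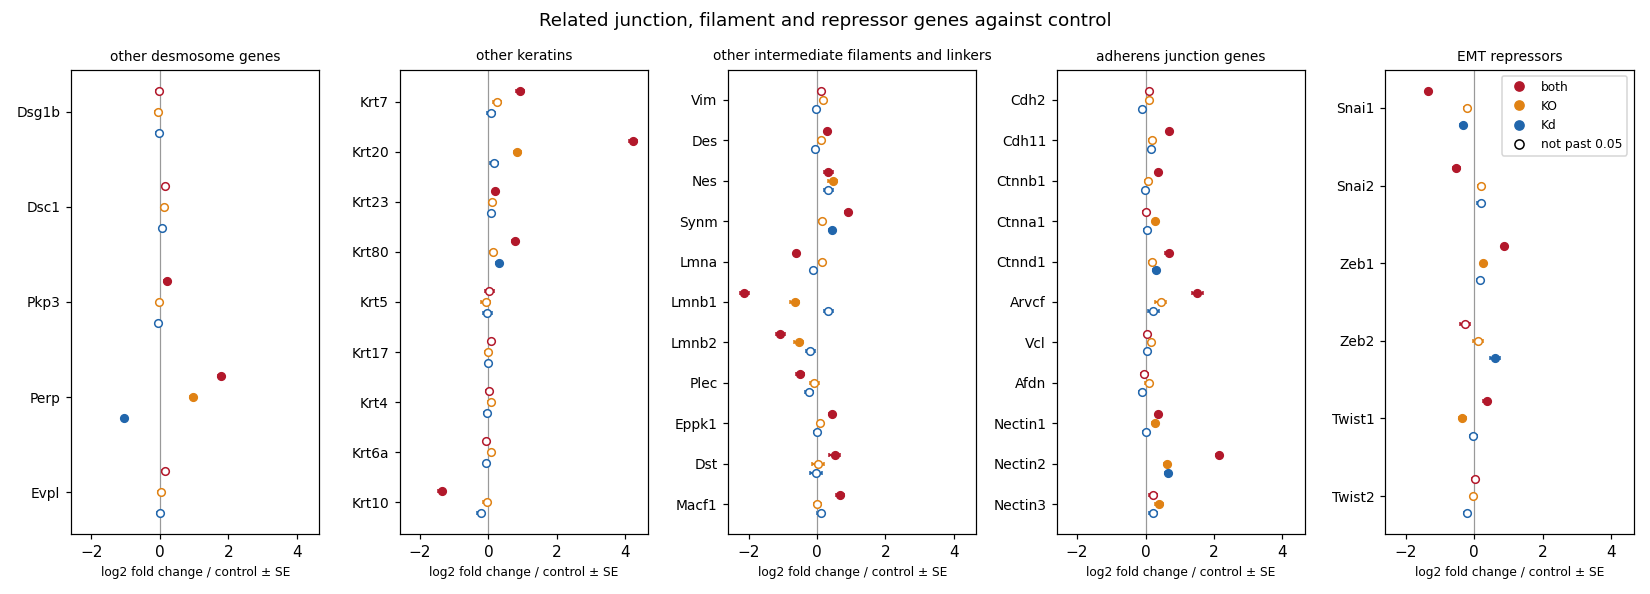
Log2 fold change ± SE against control of the tested genes in the related lists, in cells with both, KO and Kd cells (filled points passed an adjusted p of 0.05). With both, Krt20 lies at 4.22, Nectin2 at 2.14 and Lmnb1 at -2.13.

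In bulk RNA, fewer cells of a type and less RNA per cell cannot be told apart, so markers of other cell types were read beside the members. Of 20 epithelial markers 11 were tested, and with both 3 were higher and 1 lower, beside 46.2% and 19.3% of all genes. The higher ones were Spint2 (1.20), Esrp2 (0.56) and St14 (0.40). St14 exceeded its array's 40th percentile on 4 of 15 arrays, among them all 3 with both, and entered the test through those. Epcam was lower with both (-0.37), in Kd (-0.36, adjusted p = 0.00657) and in +/+ cells (-0.35, adjusted p = 0.00304). Cells with both did not pass against Kd cells for Epcam (-0.01, adjusted p = 0.892). After quantile normalization 2 markers were higher and 2 lower, the Esrp2 call having ended and Cdh1 having passed as lower. The summed intensity of the 20 markers was 497 to 547 in cells with both, 422 to 460 in KO, 425 to 438 in Kd, 411 to 434 in +/+ and 406 to 441 in control cells. In that order, 9, 11, 11, 11 and 9 of the 20 were at or under the 40th percentile on all arrays of these groups. Cdh1, the defining cadherin of epithelia, lay at 21.2 to 25.2 in cells with both, 21.1 to 23.8 in KO, 24.7 to 30.2 in Kd, 19.6 to 25.97 in +/+ and 21.8 to 31.1 in control cells, near the dim level also in the cells where Dsp was bright.

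The 8 mesothelial markers summed to 513 to 587 in cells with both, 482 to 535 in KO, 135 to 146 in Kd, 196 to 250 in +/+ and 201 to 249 in control cells, and 3, 4, 6, 6 and 5 of the 8 were at or under the 40th percentile. Bnc1 made up most of the sum in cells with both and KO cells, with 1.92 with both, 1.86 in KO and -1.40 in Kd cells, and KO cells were at 1.70 against +/+ cells. Of the other 3 tested markers, Upk3b averaged 30.6 ± 5.68 in cells with both and 13.1 ± 1.01 in control cells (0.67). It exceeded its array's 40th percentile only on the 3 arrays with both. Upk3b thus entered the test through the group where it was high, and its p-value is not given as support. Msln was lower, at 21.7 ± 1.80 in cells with both and 27.8 ± 3.38 in control cells (-0.21, adjusted p = 0.0294). Rspo1 did not pass (0.06, adjusted p = 0.48). The 8 endothelial markers summed to 402 to 472 in cells with both, 188 to 233 in KO, 206 to 237 in Kd, 235 to 268 in +/+ and 225 to 246 in control cells, with 4, 6, 6, 6 and 6 at or under that level, Kdr at 1.53 and Egfl7 at 0.82 with both. The 8 cardiac and muscle markers summed to 259 to 287 in cells with both, 178 to 248 in KO, 160 to 164 in Kd, 162 to 172 in +/+ and 150 to 159 in control cells, with 3, 4, 3, 3 and 3 at or under that level. Tnnt2 was at 1.37 with both and 1.08 in KO cells against control, and KO cells were at 1.08 against +/+ cells. For Tnnt2 cells with both did not pass against KO cells (0.29, adjusted p = 0.101). The 8 macrophage markers summed to 384 to 560 in cells with both, 437 to 647 in KO, 388 to 434 in Kd, 335 to 451 in +/+ and 392 to 416 in control cells, with 3, 3, 3, 4 and 3 at or under that level. The 10 fibroblast markers summed to 204559 to 217042 in cells with both, 149369 to 167799 in KO, 164080 to 169327 in Kd, 157840 to 164971 in +/+ and 149669 to 158476 in control cells, with 0, 1, 1, 1 and 1 at or under it. The part of these markers in the members' results was not tested.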

How the data were processed

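The deposited table holds 1 linear intensity per array for 45037 probe sets; the sources used here do not state the authors' background correction, summary or scaling. By the array's annotation, 34945 probe sets had a single symbol; 932 with several and 9160 with none were left out. RefSeq gene IDs matched 34741 probe sets and changed 0 symbols.

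Each gene's brightest probe set was fitted on all 15 arrays with limma 3.58.1 in R 4.3.3 (1 mean per group, lmFit, contrasts.fit, eBayes). The fitting step was also run on simulated data with normal noise and equal array levels. Those runs did not test the choice of probe sets or the scaling. Precision is limited by the number of arrays: fold changes had a median SE of 0.0868, interactions 0.123. Residuals of same-numbered arrays correlated between -0.16 and 0.14, so the numbers were not used as pairs.

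The members and lists were chosen with earlier results of these data known. Named were the members, a selection of the lists' genes, mostly called ones, and the 3 genes most like Dsp and Krt8. The planned rule of up to 4 called genes per list and comparison with control was not kept throughout. Alternatives were a robust trended eBayes, fits of the compared groups alone, a replicate block, no filter or the 60th percentile, mean probe sets, leaving out _x_at and _s_at probe sets, quantile normalization, median centring, arrayWeights, a pseudocount of 1 and leaving out each array.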

Additional observations from a re-analysis of the deposited data

Results flagged for a closer look

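By limma's test of the interaction, the difference of tamoxifen-treated, Hdac1-deleted cells from ethanol-treated cells depended on the micro-RNA in 3 of the 9 tested genes, beside 42.9% of all 13375 genes, so the count is no result about the group. Dsp had an interaction of 4.08 on the log2 scale (adjusted p = 1.58e-12), with a probe set whose choice was not independent of the cells with both. Over its alternatives, the next probe set among them, the adjusted p was at most 4.36e-10. Krt19 had -2.13 (adjusted p = 2.59e-07, at most 6.6e-06), being lower in cells with both than in Kd cells and higher in KO than in control cells. Pkp1 had -0.87 (adjusted p = 0.00769, at most 0.0261).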

How the results depend on the processing

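With both against control, the calls of Dsp, Jup, Pkp2 and Krt19 stood in every alternative that gave a value. The log2 fold changes were 2.94 to 5.18, 0.72 to 1.28, 0.65 to 1.33 and -1.26 to -0.48. These ranges include +/+ cells in place of control, an alternative chosen after seeing the data. That change of reference group gave the 0.72 of Jup, the 1.33 of Pkp2 and the -1.26 of Krt19, and it put Pkp1 at -0.54. With arrayWeights 1283 genes in place of 3240 were called for KO and 2813 in place of 1417 for Kd against control, and 1599 in place of 3225 for KO against +/+; of the members 3 in place of 5 were called for both against KO and 1 in place of 2 for KO against +/+. The last count was also 1 with only the compared groups and 1 with the mean of probe sets, which gave 2 in place of 4 for +/+ against control. The cause was not tested. With each array left out in turn, genes called ran from 8094 to 9003 (both), 2360 to 4025 (KO), 956 to 1692 (Kd) and 2804 to 4278 (+/+) against control, 7776 to 8731 for both against Kd, 6962 to 7618 for both against KO, 5162 to 5893 for the interaction and 2494 to 3582 for KO against +/+. Members called ran from 1 to 3 for Kd against control, 2 to 5 for +/+ against control, 1 to 3 for KO against +/+, 4 to 6 for both against KO and 3 to 4 for the interaction. With the replicate block 8606, 3007 and 1303 genes were called for both, KO and Kd against control, with 5, 4 and 2 members. The block ended the Pkp4 calls for both against KO (adjusted p = 0.0615) and +/+ against control (adjusted p = 0.0654), and Jup passed for +/+ against control (adjusted p = 0.0121). Jup had no value without _s_at probe sets. Krt18 did not pass the brightness filter and was not tested. Dsg2, Dsc2 and Krt8 passed in 0 alternatives of the 8 comparisons; on the scale used, changes of such dim genes are understated.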
